A study of Mus musculus with 6 samples.

Results

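Border macrophages with high MHC class II were 505 of the 77105 cells kept from the midbrains of Line 61 mice. The PBS library gave 116, the Monomer library 151, the PFF + VH library 111 and the PFF + AZD1480 library 127. They were selected on measured UMI (unique transcript) counts: at least 4 UMIs summed over Mrc1, Pf4, Cd163, Cbr2, Lyve1, F13a1 and Ms4a7, a sum above that of the microglial genes P2ry12, Tmem119 and Siglech, and at least 1% of the cell's UMIs from H2-Aa, H2-Ab1, H2-Eb1 and Cd74. The first conditions were met by 1470 cells, and the 965 of these under the 1% limit are called low MHC class II border macrophages below. Levels of the selecting genes therefore describe the choice and are given with no test.

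Line 61 mice overexpress human α-Syn from a transgene under the Thy1 promoter in every group, and no group without the transgene was analysed here. Male mice of 12 to 15 weeks received PBS, α-Syn monomer or PFF, which are preformed α-Syn fibrils, by stereotaxic injection. From week 2 the PFF mice were gavaged with vehicle (VH) or with AZD1480, an inhibitor of JAK1 and JAK2, at 25 mg/kg. At week 6 live CD45+ cells were sorted, 3 to 5 ventral midbrains being pooled per sample, and each condition was sequenced as 1 10x library. The PBS and Monomer libraries gave no map from cells to animals, so their comparisons have no replicate check. The 2 PFF libraries carried hashtag antibodies, 4 in VH and 5 in AZD1480, which were taken as replicates.

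Border macrophages live in the meninges, the perivascular spaces and the choroid plexus rather than in the parenchyma that microglia occupy. MHC class II molecules, an α and a β chain escorted by the invariant chain Cd74, carry peptides from the endosome to CD4+ T cells. The peptides are loaded with the help of H2-DM, and transcription of the whole set depends on the coactivator Ciita, which docks on factors bound to the S, X and Y boxes of class II promoters.

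Promoters of class II genes that the results turn on were taken from RefSeq on GRCm38.p6, 250 bases before to 50 after the start of the gene, to show the shared letters. Capitals mark TGATTGG, the letters of the Y box (an inverted CCAAT box), and AACTGATGATGCT, the longest run of letters that H2-Eb1 and H2-DMb1 share. H2-Aa lies at chr17:34287774-34288073 (minus strand), H2-Eb1 at chr17:34305617-34305916 (plus strand) and H2-DMb1 at chr17:34152941-34153240 (plus strand).

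H2-Aa: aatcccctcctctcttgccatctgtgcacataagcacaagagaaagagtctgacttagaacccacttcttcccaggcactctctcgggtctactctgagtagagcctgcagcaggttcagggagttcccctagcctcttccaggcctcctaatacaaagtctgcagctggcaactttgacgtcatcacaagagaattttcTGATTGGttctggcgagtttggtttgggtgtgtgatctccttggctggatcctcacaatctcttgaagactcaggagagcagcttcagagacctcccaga
H2-Eb1: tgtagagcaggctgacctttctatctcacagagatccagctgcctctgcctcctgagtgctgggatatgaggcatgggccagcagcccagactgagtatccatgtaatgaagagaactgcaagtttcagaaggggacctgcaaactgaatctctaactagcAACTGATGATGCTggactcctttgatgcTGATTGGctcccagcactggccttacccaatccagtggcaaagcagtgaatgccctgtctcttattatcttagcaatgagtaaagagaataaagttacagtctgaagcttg
H2-DMb1: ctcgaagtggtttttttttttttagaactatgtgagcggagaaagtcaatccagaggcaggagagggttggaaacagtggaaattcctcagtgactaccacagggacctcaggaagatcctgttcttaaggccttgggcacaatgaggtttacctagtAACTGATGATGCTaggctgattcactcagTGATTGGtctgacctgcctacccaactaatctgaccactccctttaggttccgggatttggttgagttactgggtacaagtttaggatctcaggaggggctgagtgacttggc

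The Y box letters began 50 bases before the start in H2-Aa, 61 in H2-Eb1 and 63 in H2-DMb1. On either strand they occurred in 2568 of 32851 mouse promoters of this length, or 7.82%. The longer run began 89 bases before the start in H2-Eb1 and 92 in H2-DMb1, was not in the H2-Aa window, and occurred in 3 promoters, or 0.00913%. It was found by comparing these promoters, so that its rarity is a description. H2-Aa, H2-Ab1, H2-Eb1, H2-DMa and H2-DMb1 lie within 197 kb of chromosome 17 (34119541 to 34316674, mm10).

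The PFF + VH library stood apart in depth. Its kept cells had a median of 2306 UMIs, against 6616 to 7028 in the other 3 libraries, and its members 2871 against 5943 to 6798. The rule asks for 4 border UMIs at any depth, so shares were also computed after cells with at least 1000 UMIs were thinned to 1000. Cells with fewer UMIs were left out of these shares. This kept 28956 of the 34436 PFF + VH cells, 13883 of 14617 in PBS, 14001 of 15031 in Monomer and 12523 of 13021 in PFF + AZD1480. Between pairs of libraries 45 to 151 barcodes of kept cells were shared, at most 1.03% of the smaller library, and no barcode was a member in both. One or more UMIs of P2ry12, Tmem119 or Siglech were present in 419 of the 505 members.

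Members made up 0.794% of the PBS cells (exact 95% binomial interval 0.656 to 0.951), 1.00% of the Monomer cells (0.851 to 1.18), 0.322% of the PFF + VH cells (0.265 to 0.388) and 0.975% of the PFF + AZD1480 cells (0.814 to 1.16). As a share of border macrophages, PBS had 36.9% (31.6 to 42.5), Monomer 54.5% (48.4 to 60.5), PFF + VH 23.03% (19.3 to 27.1) and PFF + AZD1480 32.0% (27.4 to 36.8). These intervals cover counting error only. PFF + VH was lowest by either share, with intervals below those of the other libraries. Among all cells the intervals of PBS, Monomer and PFF + AZD1480 overlapped, while among border macrophages that of Monomer lay above the others and those of PBS and PFF + AZD1480 overlapped.

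After thinning to 1000 UMIs the order changed for the share of all cells and not for that of border macrophages. In the order PBS, Monomer, PFF + VH, PFF + AZD1480, members were then 0.346%, 0.321%, 0.176% and 0.415% of the cells. Of the border macrophages they were 22.7% (17.3 to 29.0), 31.9% (24.3 to 40.3), 18.5% (14.1 to 23.7) and 22.5% (17.3 to 28.4) in the same order. PFF + VH was still lowest by both shares, but among border macrophages its interval then overlapped those of PBS and PFF + AZD1480. Monomer was no longer highest among all cells.

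The 4 selecting class II genes together took a median of 4.52% of a member's UMIs and 12.9% in the highest cell. The PBS median was 3.73%, the Monomer median 5.57%, the PFF + VH median 4.91% and the PFF + AZD1480 median 4.27%. In the low class 375 of 965 cells had none, and the medians were 0.004% to 0.049%. Around the limit lay 67 border macrophages between 0.5% and 1% and 38 between 1% and 1.5%. There were 898 under 0.5%, 141 from 2% to 4% and 122 from 4% to 6%, and no gap marked the limit. The highest cell outside had 0.976% and the lowest inside 1.03%. On the other side of the rule 36 members had exactly 4 border UMIs, and 37 cells with 3 met every other condition. Members were 33.4% of all cells at or above 1% class II and held 38.1% of the class II UMIs of the PBS library, 57.7% for Monomer, 17.96% with VH and 39.6% with AZD1480.

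**Figure D1:**
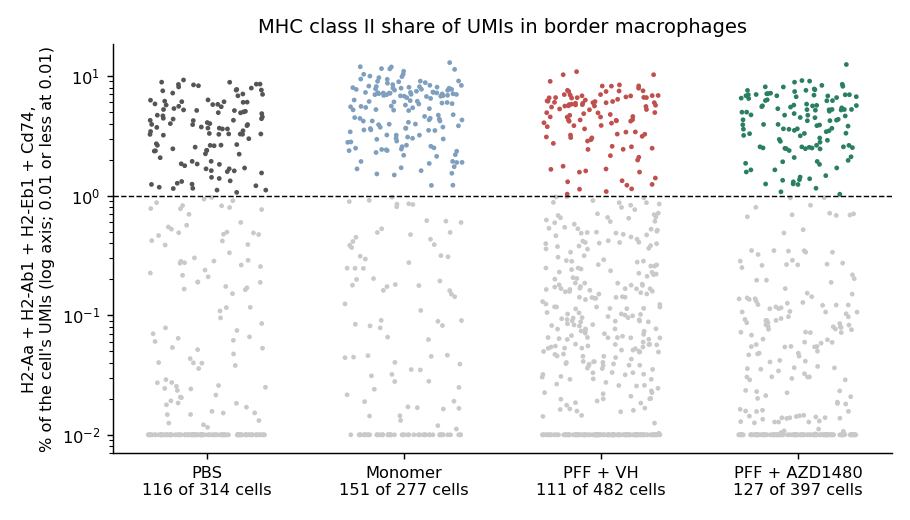
Share of a cell's UMIs from H2-Aa, H2-Ab1, H2-Eb1 and Cd74 (percent, log axis) in each border macrophage of the 4 libraries; coloured points are the members, grey points the low class and the dashed line the limit of 1%. Each library holds a group of cells above 1% and many cells at or near 0, and cells lie on both sides of the limit without a gap.

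Among the selecting border genes the members had less of the resident scavenger set than the low class. Mrc1, the mannose receptor, was at 1217, 1110, 1026 and 1089 CPM (counts per 10⁶ UMIs of the summed cells of a class) in PBS, Monomer, PFF + VH and PFF + AZD1480, against 1594 to 2969 in the low class. Ms4a7 was at 444 to 892 CPM in the members and 598 to 765 CPM in the low class. At 1000 UMIs per cell Mrc1 was detected in 52.8% to 63.2% of members, Pf4 in 33.8% to 46.5% and Ms4a7 in 28.8% to 49.5%. Lyve1, the hyaluronan receptor of perivascular and leptomeningeal macrophages, was detected in 0.88% to 1.6% of members against 11.9% to 33.9% of the low class. F13a1 was detected in 17.6% to 38.4% of members against 50.9% to 78.1%. Lyve1 was thus close to absent, and Mrc1, Pf4 and Ms4a7 were the selecting border genes detected most often, except that in PFF + AZD1480 F13a1 (38.4%) came before Ms4a7 (28.8%). Sall1, a transcription factor gene of microglia that the rule did not use, was detected in 0% to 4.59% of members against 20.5% to 24.3% of microglia.

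Genes that the rule did not use also differed between the classes, but class II level chose the cells, and no test was run on this contrast. A gene was counted when it reached 100 CPM in 1 class or the other and differed at least 2-fold the same way in each of the 4 libraries. Of 2266 such genes 27 (1.19%) were higher in the members and 45 (1.99%) were lower.

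The 15 genes named in each direction had at least 100 CPM in the higher class of every library and the largest ratios, ordered by the smallest of the 4. Genes of antigen presentation led the higher side. Ciita, the class II coactivator, was at 146, 152, 121 and 136 CPM in PBS, Monomer, PFF + VH and PFF + AZD1480, against 0.7 to 6.3 CPM in the low class. H2-DMb1 was at 573, 645, 593 and 615 CPM against 36.6 to 82.2, and its partner chain H2-DMa at 736 to 878 CPM against 159 to 187. In every library the 2 classes were far apart for these 3 genes. Of the 8 measured genes of class II machinery outside the rule 4 passed the 2-fold count upward (all genes 1.19%), the fourth being H2-DMb2 at 73.5 to 130 CPM against 2.2 to 5.8. H2-DMb1 and H2-DMb2 are close copies, and how their reads were split was not tested. Gm20513, first by ratio, is antisense to H2-Eb1 and shares 2204 bases with it, so reads of the pair may not be separable. It was at 218 to 392 CPM in members and 2.2 to 6.3 CPM in the low class.

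Other higher genes had roles outside antigen presentation. Ccr2, the chemokine receptor by which monocytes leave the marrow, was at 315, 303, 328 and 330 CPM in the 4 libraries, against 45.6 to 113 CPM in the low class. Tnip3, an inhibitor of NF-κB signaling, was at 167 to 283 CPM against 0 to 18.7. Il1b, the inflammatory cytokine, was at 1177, 2007, 1632 and 2400 CPM against 360 to 946. Also among the 15 were Klra2, a Ly49 family receptor, Slamf9, Plbd1, the transcription factor gene Trerf1 and the receptor tyrosine kinase gene Axl. Their mean levels were 187 to 265 CPM in members and 30.6 to 79.1 CPM in the low class. The remaining 3 of the 15 were Negr1, Fam129a and Fxyd5.

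At equal depth the same cells could be compared with microglia. These microglia were chosen to hold no UMI of the selecting border genes, so they give no measure of free RNA from border macrophages. Ccr2 was detected in 17.4% to 22.4% of members thinned to 1000 UMIs, in 1.65% to 3.43% of the low class and in 0.13% to 0.40% of microglia. Ciita was detected in 9.17% to 13.6% of members, at most 1.09% of the low class and at most 0.13% of microglia. Without thinning, Ccr2 was detected in 29.0% of the PBS members and Ciita in 44.7%, at a median of 5984 UMIs. Of the 21 measured monocyte genes, Ccr2 and 1 more passed the 2-fold count upward (all genes 1.19%) and 1 passed downward (all genes 1.99%). Ly6c2, which marks classical monocytes, was at 70.4, 0, 2.6 and 2.5 CPM in the members.

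**Figure D2:**
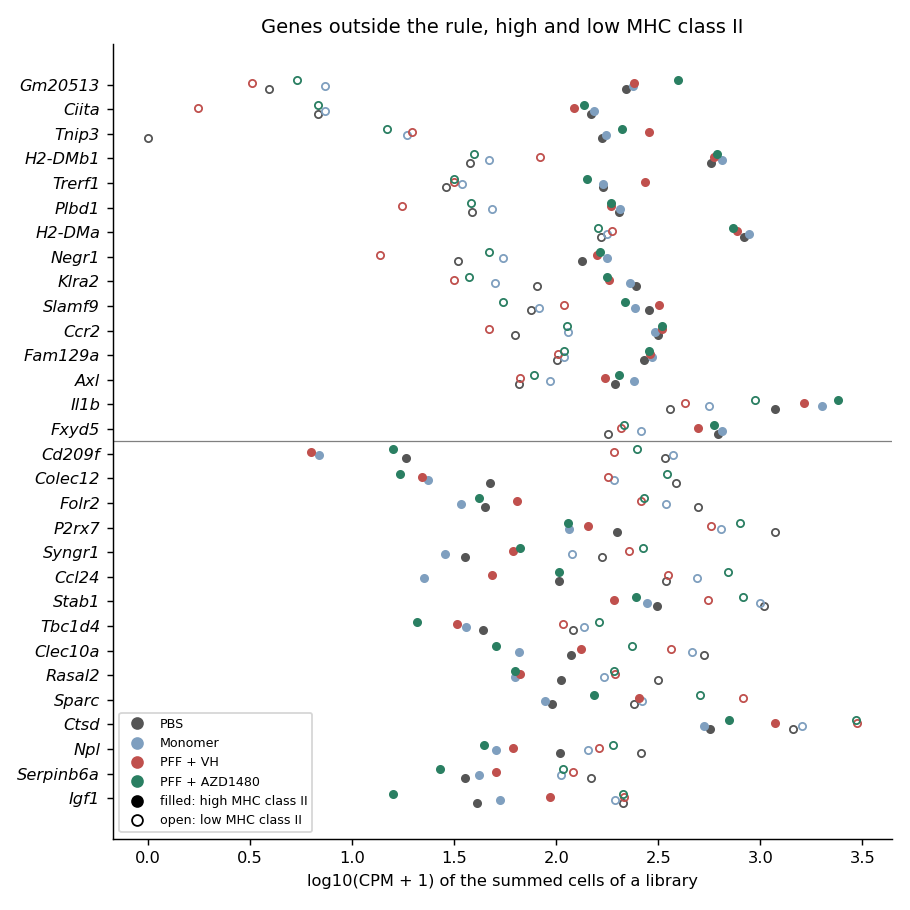
Levels, as log10(CPM + 1) of the summed cells of a library, of 15 genes higher and 15 lower in the members (filled) than in low MHC class II border macrophages (open), with 1 point per library. The filled and open points of a gene do not mix within a library, and Cd209f is at 5.2 to 17.3 CPM in the members and 190 to 373 CPM in the low class.

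The lower genes included lectins and scavenger receptors of resident border macrophages. Cd209f, a C-type lectin, was at 17.3, 5.9, 5.2 and 14.9 CPM in PBS, Monomer, PFF + VH and PFF + AZD1480, against 190 to 373 CPM in the low class. Folr2, the folate receptor β, was at 33.2 to 63.0 CPM against 260 to 496, and Stab1, a scavenger receptor, at 192 to 310 CPM against 554 to 1046. Colec12, a scavenger collectin, was at 16.1 to 46.5 CPM against 179 to 387. Of 30 measured border macrophage genes outside the rule 14 were at least 2-fold lower in all 4 libraries (all genes 1.99%) and 1 was higher (all genes 1.19%). The ATP-gated channel gene P2rx7, the chemokine gene Ccl24, the lectin gene Clec10a, the protease gene Ctsd and the growth factor gene Igf1 were among the 15, beside Syngr1, Tbc1d4, Rasal2, Sparc, Npl and Serpinb6a. Not all of these were genes of border macrophages, as Sparc was at 240 to 818 CPM in the low class and 2720 to 3077 CPM in microglia.

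Of the 15 higher genes 12 had a promoter in the table and 2 of these, H2-DMb1 and Trerf1, held the Y box letters on either strand. Of the 15 lower genes 12 had a promoter and 0 held them. Among the class II machinery genes the letters stood in H2-DMb1, H2-DMb2, H2-Eb2, H2-Oa, H2-Ob and Rfx5, or 6 of the 12 with a promoter. The background is the 7.82% of all promoters given above.

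Markers of other immune cells were checked in the summed members. For dendritic cells Xcr1 and Ccr7 were at 0 in all 4 libraries, Zbtb46 was at 2.6 to 9.9 CPM and Flt3 at 2.6 to 28.5 CPM, and 4 of the 20 listed genes had no UMI in any member. Batf3, a transcription factor gene of the list, was at 54.5, 54.7, 84.0 and 45.9 CPM in the members, against 20.2 to 24.7 CPM in the low class. At 1000 UMIs Flt3 was detected in 0% to 3.51% of members and 0% to 0.546% of the low class, and Itgax in 1.35% to 6.42% and 0% to 2.15%. Cd209a, the lectin of monocyte-derived dendritic cells, was detected in 4.73% to 7.90% of members and in 11.01% to 16.5% of the low class. T and NK markers summed to 71.3 to 141 CPM over 18 genes, and Cd3e to 0 to 8.0 CPM. B cell markers summed to 367 to 445 CPM over 12 genes, of which Bank1 and Ighm held most, while Pax5 was at 0. Neutrophil markers summed to 491, 95.7, 118 and 2023 CPM. Markers of cells outside CD45 summed to 90.3 to 130 CPM, with Cldn5 at 0.

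Some single members held many UMIs of genes that mark other cell types. In PFF + AZD1480 1 cell held 417 of the 433 UMIs of S100a8, 745 of the 770 of S100a9 and all 283 of Retnlg, which are neutrophil genes. In PBS 1 cell held all 170 UMIs of S100a9. At least 10 UMIs of markers of other cell types were present in 24 members, 8 from PBS, 4 from Monomer, 1 with VH and 11 with AZD1480. Among all kept cells 12298 of 14617 in PBS and 13256 of 15031 in Monomer held fewer than 10. With VH it was 33402 of 34436 and with AZD1480 11330 of 13021. In each library, reaching 10 was thus less frequent among members than among all cells. The limit takes no account of depth. Without these 24 cells S100a8 in PFF + AZD1480 was 21.2 CPM instead of 537. Whether they were doublets was not tested.

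Within the members several genes varied with the class II share. In bands of 1 to 2%, 2 to 4%, 4 to 6% and over 6% of UMIs there were 78, 141, 122 and 164 cells. H2-DMb1 was at 185 to 269 CPM in the lowest band and 671 to 878 CPM in the highest. Ccr2 was at 35.5, 72.0, 43.1 and 237 CPM in the lowest band of PBS, Monomer, PFF + VH and PFF + AZD1480, and at 454, 418, 415 and 473 CPM in the highest. F13a1, a transglutaminase subunit, went the other way, from 858, 771, 1100 and 931 CPM to 165, 107, 174 and 381 CPM. Stab1 was at 329 to 627 CPM in the lowest band and 130 to 166 CPM in the highest. The bands are a description, because the class II share and the genes come from the same cells, and in each library 2 or more bands held under 40 cells.

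**Figure D3:**
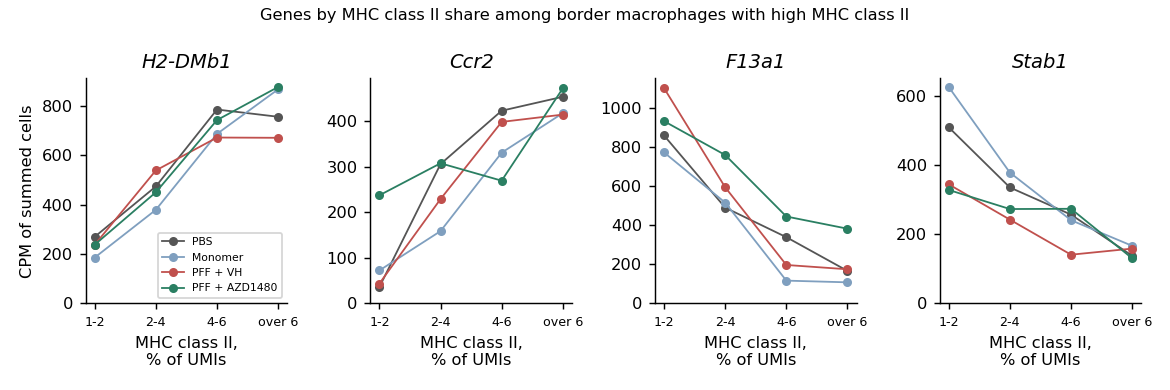
Levels of H2-DMb1, Ccr2, F13a1 and Stab1 (CPM of the summed cells) in members grouped by the share of their UMIs from the 4 class II genes, with 1 line per library. H2-DMb1 and Ccr2 were higher in the band over 6% than in the band of 1 to 2% in all 4 libraries, and F13a1 and Stab1 were lower.

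Injection of monomer was compared with PBS by the ratio of the 2 libraries, with no test. Of 1794 genes at or above 100 CPM in either, 4 (0.223%) were more than 2-fold higher in Monomer and 22 (1.23%) were lower. The higher genes were Slamf7 (101 against 29.2 CPM), F11r (135 against 59.8), the chemokine gene Cxcl1 (227 against 105) and the prostaglandin synthase gene Ptgs2 (101 against 47.8). The log2 ratio of Slamf7 was 1.78 (exact 95% counting interval 1.11 to 2.52). Among the lower genes Vcam1, an adhesion molecule, was at 44.9 against 197 CPM, the interferon-induced Isg15 at 32.2 against 116 CPM and Ccn1 at 20.5 against 114 CPM. Part of both sides rested on few cells. Cxcl1 came from 19 cells in Monomer and 13 in PBS, and Ptgs2 from 18 and 7. On the lower side 53 of the 85 Plac8 UMIs in PBS were in 1 cell.

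PFF + VH was compared with Monomer in the same way, and this comparison shares the Monomer library with the one before. Vehicle gavage is described only for the PFF mice, and only the PFF libraries carried hashtag antibodies. Fibrils, gavage, hashtags and library therefore cannot be told apart in this comparison. Of 1751 genes 24 (1.37%) were more than 2-fold higher in PFF + VH and 11 (0.628%) were lower. Lpl, the lipoprotein lipase, was at 197 against 64.5 CPM, a log2 ratio of 1.61 (counting interval 1.11 to 2.11). Kitl, the ligand of Kit, was at 173 against 54.7 CPM, with 19 of its 66 UMIs in PFF + VH in 1 cell. In the low class Kitl went the other way, at 80.0 against 135 CPM. Sparc was at 255 against 86.9 CPM, and Sparc is abundant in microglia, at 2964 CPM in this library. Retnla, a marker of alternative activation, was at 735 against 105 CPM but came from 7 cells in PFF + VH and 2 in Monomer. Mmp12, a macrophage elastase, was at 236 CPM from 12 cells against 60.6 CPM from 7. Lower genes included the chemokine gene Ccl7 (171 against 392 CPM), the prostaglandin receptor gene Ptger4 (97.1 against 200) and Pla2g7 (102 against 257). Ccl7 came from 11 cells in PFF + VH, 1 of which held 30 of its 65 UMIs, and from 18 in Monomer. In the low class the counts were 55 higher (2.82%) and 22 lower (1.13%) of 1952 genes. Gm42418, which overlaps ribosomal RNA, was at 12610 CPM in the PFF + VH members and 7033 to 9277 in the others. The part of depth and of this RNA in these ratios was not tested.

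The effect of AZD1480 on the number of members could be examined over hashtags. Of the members 97 of 111 in PFF + VH and 84 of 127 in PFF + AZD1480 carried 1 hashtag, while 11 and 42 carried more than 1. Among all kept cells 37.3% in PFF + VH had no hashtag, against 2.70% of its members. In PFF + AZD1480 12.6% had more than 1 hashtag, against 33.1% of its members and 31.5% of its low class. In PFF + VH more than 1 hashtag was found in 9.91% of the members and 24.3% of the low class. The mean shares of cells below are higher with VH and lower with AZD1480 than in the whole libraries. Nothing in the labels says which animals a hashtag marks, and p-values measure only the spread between these samples. All VH hashtags were in 1 library and all AZD1480 hashtags in another, so that treatment and library cannot be told apart.

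Members were 0.665%, 0.849%, 0.236% and 0.466% of the cells of VH hashtags 1 to 4, and 1.05%, 0.845%, 0.570%, 0.777% and 0.526% of those of AZD1480 hashtags 1 to 5. The ranges overlapped, VH hashtag 3 being the lowest. The mean was 0.754% ± 0.215 (SD, n = 5) with AZD1480 and 0.554% ± 0.264 (SD, n = 4) with VH. The difference of 0.201 percentage points did not pass a two-sided exact permutation test (p = 0.270, Benjamini-Hochberg 0.349 over 2 shares, smallest possible p 0.0159). It was 0.0945 points without VH hashtag 3, 0.126 without AZD1480 hashtag 1 and 0.0536 after thinning to 1000 UMIs. When a cell was given the hashtag with at least 3 times the counts of the next, it was 0.466 points (exact permutation p = 0.0317, adjusted 0.0635).

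Of the border macrophages, members were 33.0%, 32.0%, 14.3% and 30.1% in the VH hashtags and 35.7%, 29.6%, 47.1%, 32.9% and 19.4% in the AZD1480 hashtags. The 47.1% rests on 8 of 17 cells. The means were 27.3% ± 8.78 (SD, n = 4) with VH and 32.9% ± 10.0 (SD, n = 5) with AZD1480, and the difference of 5.59 percentage points did not pass the exact permutation test (p = 0.349, adjusted 0.349). It was 1.23 points without VH hashtag 3, 2.06 without AZD1480 hashtag 3, 8.96 without AZD1480 hashtag 5, 0.728 after thinning and 11.9 with MULTIseqDemux, another caller of hashtags.

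**Figure D4:**
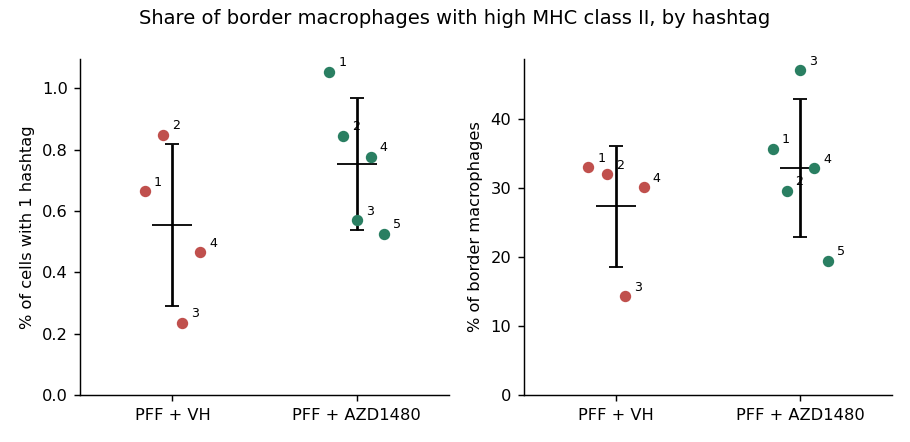
Members as a percentage of the cells with 1 hashtag (left) and of the border macrophages (right), with 1 numbered point per hashtag and the mean ± SD of 4 VH and 5 AZD1480 hashtags. The groups overlap in both panels, and VH hashtag 3 is lowest, at 0.236% and 14.3%.

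For genes, counts of the members were summed per hashtag, and hashtags with at least 10 members entered the fit, 4 with VH and 3 with AZD1480. By the quasi-likelihood test of edgeR, adjusted after Benjamini-Hochberg, 5 of 1892 genes (0.264%) passed an adjusted p of 0.05, Ccl12, Cebpb and Ets2 higher and Lsamp and Cacna1d lower with AZD1480. At an unadjusted p under 0.05 there were 161 (8.51%), 83 higher (4.39%) and 78 lower (4.12%), and in 153 genes (8.09%) the hashtags of the groups did not overlap. The log2 fold change was positive in 49.2% of all genes tested and negative in 50.8%. DESeq2 called 11 genes (0.581%), adding Cited2, Mgl2, Plxdc2, Lpl and Ccdc152 to these 5, the remaining one being among the selecting genes. In simulated counts for these genes and samples 40% of the 2-fold and 91% of the 4-fold changes were recovered, with 7 false calls. When cells were given the hashtag with at least 3 times the counts of the next, which admitted 5 AZD1480 hashtags, edgeR called 0 of 1637 genes, and 186 had an unadjusted p under 0.05. Ccl12, Cebpb, Ets2 and Cacna1d then had log2 fold changes of 1.28, 1.34, 1.34 and -1.66.

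Ccl12, a chemokine that binds Ccr2, was at 665, 675, 634 and 516 CPM in the VH hashtags and 1531, 2240 and 2258 CPM in the AZD1480 hashtags. All 3 AZD1480 values were above all 4 VH values. The log2 fold change was 1.68 (SE 0.199, edgeR adjusted p = 0.0010). The AZD1480 hashtags too small for the fit gave 1677 CPM (8 cells) and 99.7 CPM (7 cells), and the second lies below every VH value. With all 9 hashtags and at least 5 cells each the log2 fold change of Ccl12 was 1.35 (edgeR adjusted p = 0.303). By library, PBS had 1322 CPM of Ccl12, Monomer 1142, PFF + VH 572 and PFF + AZD1480 1546, so that PFF + VH was the low library. In thinned cells Ccl12 was detected in 28.8% (21.05 to 37.58) of PFF + AZD1480 members and 32.1% (23.49 to 41.73) of PFF + VH members. Without thinning, 59 of 127 PFF + AZD1480 members and 55 of 111 PFF + VH members held it. The higher CPM with AZD1480 thus did not come with a larger share of members in which Ccl12 was detected.

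Cebpb, a transcription factor gene of the myeloid lineage, was at 327, 333, 178 and 215 CPM with VH and 685, 837 and 615 CPM with AZD1480. Its log2 fold change was 1.37 (SE 0.260, edgeR adjusted p = 0.0427). Ets2, another transcription factor gene, was at 69.5, 111, 25.4 and 71.6 CPM against 420, 226 and 255 CPM. Its log2 fold change was 1.97 (SE 0.376, edgeR adjusted p = 0.0427). Neither gene overlapped between the groups. As for Ccl12, the PFF + VH library was the lowest of the 4, Cebpb being at 302 CPM against 505 to 725 and Ets2 at 97.1 CPM against 167 to 260.

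Lsamp, which encodes a neuronal cell adhesion protein, was at 169, 241, 0 and 372 CPM with VH and 7.0, 15.1 and 7.5 CPM with AZD1480. VH hashtag 3 was below the AZD1480 values. The log2 fold change was -4.27 (SE 0.770, edgeR adjusted p = 0.0427). By library Lsamp was at 264, 438 and 310 CPM in PBS, Monomer and PFF + VH, from 21, 38 and 27 cells, and 4.96 CPM in PFF + AZD1480, from 4. Cacna1d, a subunit of an L-type calcium channel, was at 109, 157, 228 and 129 CPM with VH and 27.97, 30.2 and 22.5 CPM with AZD1480, without overlap. Its log2 fold change was -2.40 (SE 0.451, edgeR adjusted p = 0.0427). The small AZD1480 hashtags held 5 and 6 UMIs of Cacna1d, or 112 and 150 CPM, inside the VH range. With all 9 hashtags the log2 fold change of Cacna1d was -1.61 (edgeR adjusted p = 0.298), so that the call was lost.

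Leaving out any 1 of the 3 AZD1480 hashtags, or VH hashtag 2, gave 1 call, and leaving out VH hashtag 4 gave 3. Without VH hashtag 1 there were 9 calls and without VH hashtag 3 there were 10. The genes next in order did not pass. Plxdc2 had a log2 fold change of -1.73 (edgeR adjusted p = 0.0584), Lpl of -2.46 (0.0607) and Slfn8 of -1.81 (0.0825). Their hashtags in the fit did not overlap between the groups, as in 8.09% of all genes.

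**Figure D5:**
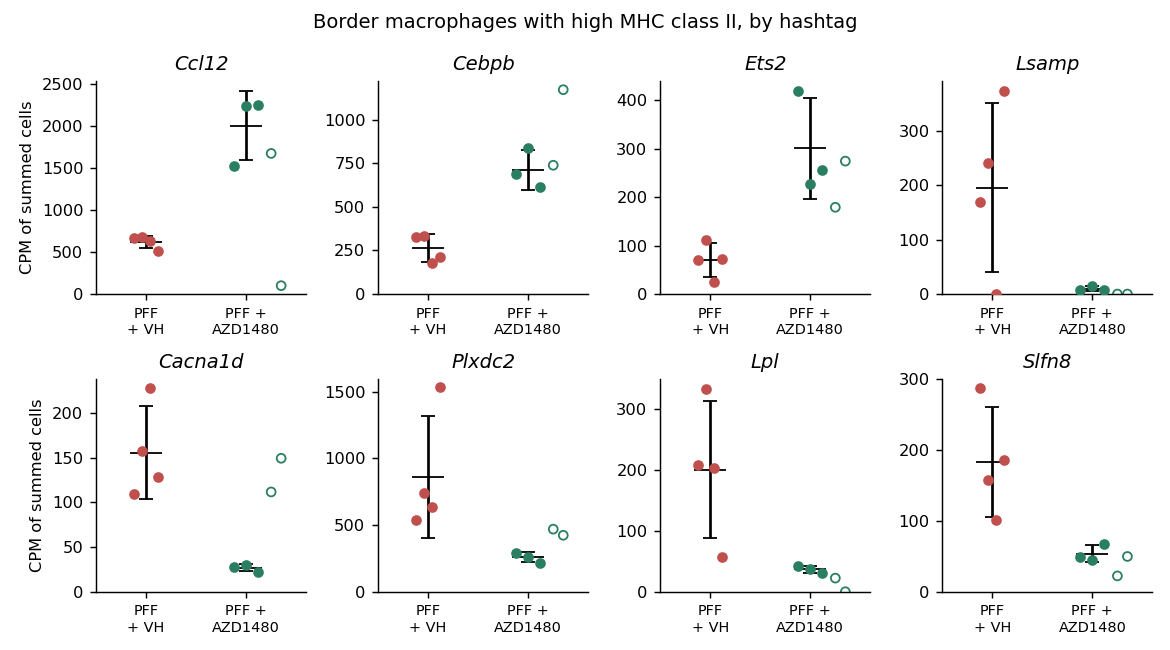
Levels (CPM of the summed members) of 8 genes in each VH and AZD1480 hashtag; filled points with mean ± SD entered the fit, and open points are the 2 AZD1480 hashtags with under 10 members. All filled AZD1480 points of Ccl12 (1531 to 2258 CPM) are above the VH points (516 to 675 CPM), while 1 open point is at 99.7 CPM.

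The selecting class II genes were close to equal between the treatments, which is a description because a cell needed them to be chosen. H2-Aa was at 11050 ± 1834 CPM (SD, n = 4) with VH and 10280 ± 1533 (SD, n = 3) with AZD1480, and the log2 fold changes of the 4 genes were -0.03 to -0.10. Of the 8 tested genes of class II machinery outside the rule 0 passed the edgeR test, 2 at an unadjusted p under 0.05 (all genes 8.51%). These 2, Ctss and Lgmn, were lower with AZD1480, with log2 fold changes of -0.43 and -0.52 (edgeR adjusted p = 0.568 and 0.563). H2-DMb1 had a log2 fold change of 0.15 (SE 0.240) and Ciita of 0.02 (SE 0.395). For MHC class I and peptide loading 0 of 13 passed and 1 had an unadjusted p under 0.05 (all genes 8.51%). Of the 13, 10 were lower (all genes 50.8%). B2m, the light chain, was at 2425 ± 347 CPM with VH and 1759 ± 225 with AZD1480 (edgeR adjusted p = 0.464). Its hashtags did not overlap between the groups, as in 8.09% of all genes.

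Genes of the JAK/STAT pathway, which AZD1480 targets, did not pass. Of 12 tested 0 were called and 1, the feedback inhibitor gene Socs3, had an unadjusted p under 0.05 (all genes 8.51%). Its log2 fold change was 0.91 (SE 0.384, edgeR adjusted p = 0.543). Of 10 type I interferon genes 0 were called, 2 had an unadjusted p under 0.05 (all genes 8.51%) and 9 were lower (all genes 50.8%), with a median log2 fold change of -0.42 against -0.006 over all genes tested. These 2 were Slfn8, and Phf11b with a log2 fold change of -1.72. Of 5 interferon-γ genes 0 were called and 0 had an unadjusted p under 0.05, with a median of -0.18.

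Immediate early and heat shock genes lay to the higher side as a list. Of 26 tested 0 were called, 12 were higher at an unadjusted p under 0.05 (all genes 4.39%) and 25 had a positive log2 fold change (all genes 49.2%), with a median of 0.62 against -0.006 over all genes. The AP-1 gene Jun was at 6366 ± 1159 CPM with AZD1480 and 4104 ± 606 with VH, a log2 fold change of 0.63 (SE 0.166, edgeR adjusted p = 0.176). The chaperone gene Hspa8 had one of 0.93 (SE 0.230, edgeR adjusted p = 0.133). In the low class the median of the list was 0.46.

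The lists that follow are to be read against all 1892 genes, of which 0.264% were called, 8.51% had an unadjusted p under 0.05 and 49.2% were positive. Of 15 NF-κB and cytokine genes 0 were called, 3 had an unadjusted p under 0.05 and 13 were positive, with a median of 0.50. Nfkbia, the NF-κB inhibitor, was at 1717 ± 512 CPM with AZD1480 and 832 ± 385 with VH (edgeR adjusted p = 0.238), and Il1b, at 2216 ± 530 and 1510 ± 1052 CPM, overlapped. Of 14 chemokine and receptor genes 1 was called, Ccl12. Ccl2 was at 2044 ± 1359 CPM with AZD1480 and 820 ± 823 with VH (edgeR adjusted p = 0.563), and Ccr2 had a log2 fold change of 0.05 (SE 0.361). Of 26 lysosome and lipid genes 0 were called and 20 were lower, 7 at an unadjusted p under 0.05 (4.12% of all genes), the protease gene Ctsd among them with -0.98 (SE 0.302). Of 11 microglial genes outside the rule 0 were called, 6 had an unadjusted p under 0.05 and 9 were lower. Their sum over 16 genes was 20690 CPM in the PFF + VH members and 15100 in PFF + AZD1480, of which Cst3, also among the dendritic cell markers, was 15670 and 11060, while Cx3cr1 was at 1142 and 1305 CPM. The part of these genes in the results above was not tested. Of 18 tested border macrophage genes outside the rule 0 were called and 5 had an unadjusted p under 0.05, with a median of 0.18. Of 14 monocyte genes 0 were called and 3 had an unadjusted p under 0.05, with a median of -0.27. The 5 long genes that the study named for a macrophage cluster, a list chosen on these samples, held 0 calls, and 3 had an unadjusted p under 0.05. These were Nav2, Nav3 and Csmd3, with log2 fold changes of -1.68, -1.18 and -1.10. Their hashtags did not overlap between the groups, as in 8.09% of all genes. Dennd4a and Ldlrad4, the others of the list, had log2 fold changes of 0.37 and -0.23, with overlap. Over all members, with any number of hashtags, Nav2 was at 110 CPM with AZD1480 and 163 with VH, Nav3 at 104 and 152 and Csmd3 at 124 and 289. Summed over the 5 genes, microglia had 9319 to 10980 CPM and the members 1304 to 1659 CPM. The sum in members was 1659 CPM with VH and 1579 CPM with AZD1480. The part of microglial RNA in these differences was not tested.

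In the low class, with 4 hashtags a group, 8 of 3886 genes (0.206%) passed, and it shares hashtags and libraries with the members. Ets2 had a log2 fold change of 1.42 there and 1.97 in the members, and Lsamp -4.63 and -4.27. Ccl12 was at 0.76 (edgeR adjusted p = 0.215) in the low class, Cebpb at 0.58 and Cacna1d at -0.72. The other genes that passed in the low class were Il1b, Cxcl2 and Cd86, higher, and Ccdc152, Csmd3 and Slfn8, lower. A direct test of the difference between the classes called 0 of 3504 genes with edgeR (percent called 0), and 142 had an unadjusted p under 0.05. DESeq2 was not run on it. The difference for Ccl12 was 1.00 on the log2 scale (SE 0.276, edgeR adjusted p = 0.852). The smallest p-values were those of Cxcl10, Igf1 and Lpl, Cxcl10 having an edgeR adjusted p of 0.221.

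By library ratio, which includes members with no or more than 1 hashtag, 37 of 1761 genes (2.1%) were more than 2-fold higher in PFF + AZD1480 than in PFF + VH and 24 (1.36%) were lower. S100a9, S100a8 and Retnlg led the higher side and rested on the 1 cell described above. Hip1, an endocytic adaptor gene, was at 136 against 26.2 CPM, Tnfsf9 at 148 against 31.5, the cell cycle inhibitor gene Cdkn1a at 332 against 105 and Myo1e at 555 against 181. One cell held 121 of the 448 Myo1e UMIs in PFF + AZD1480, and in the low class Myo1e was at 127 against 217 CPM. Hip1 was at 108 CPM in PBS and 68.4 in Monomer, so that PFF + VH was again the low library. Retnla had no UMI in PFF + AZD1480 against 735 CPM in PFF + VH, where only 7 cells held it. At a floor of 3 counts per library Retnla was 198-fold lower, and its counting interval ended at a log2 ratio of -7.32. Mmp12 had 1 UMI and Cxcl13 1 UMI in PFF + AZD1480 against 90 and 42 in PFF + VH, from 12 and 7 cells there. Without the floor their log2 ratios were -7.57 (counting interval -12.89 to -5.06) and -6.47 (-11.81 to -3.92). With the floor they were -5.99 and -4.89. Slfn8 was at 251, 241, 202 and 40.9 CPM in PBS, Monomer, PFF + VH and PFF + AZD1480, in 70, 100, 44 and 26 cells. For Slfn8 the low library was PFF + AZD1480.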

How the data were processed

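Each deposited matrix gives, for every gene of every cell, the count of UMIs that Cell Ranger (release 7.0.1 in the file header) assigned on mm10 for the authors, and the PFF matrices also hold hashtag counts. They counted UMIs, so PCR copies of a molecule count once, and the reads come from the 3' end. Cells with 500 to 15000 UMIs, 250 to 5000 genes and at most 10% mitochondrial UMIs were kept, the limits the study used. Total UMIs per library were 99658216 to 116440449, and those of the summed members 381063 to 1023940, which sets the precision of every level given.

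Members, gene lists and the rule for named genes were chosen with earlier results of these data known. Named genes were the 14 of the rule, genes of each list that passed or had the highest CPM (up to 4), those with the largest change in each fit (up to 10, or the 5 smallest p-values where under 3 passed) and in each library comparison (8), and 15 in each direction between the classes. Ccl2, H2-DMb2, Hspa8, Nav3, Nfkbia, Phf11b and markers of other cells fall outside this rule and were chosen after their values were seen. Hashtags were called with HTODemux (Seurat 5.3.0, R 4.3.3, quantile 0.99). Counts were summed per hashtag (at least 10 members) and tested with edgeR 4.0.16 (quasi-likelihood test, TMM, filterByExpr, Benjamini-Hochberg, threshold 0.05), which was also run on simulated data. Shares were compared by an exact permutation test over 126 assignments. The study's own test, a hurdle model, was not used. Microglia for comparison had at least 4 UMIs of the microglial genes and no border UMI. Hashtag numbers did not pair the samples (correlations of same-numbered deviations 0.0541, -0.0618 and -0.0855). Ratios of libraries used genes at or above 100 CPM, and intervals are exact. Promoters came from RefSeq (GRCm38.p6) and positions from the mm10 annotation. Doublets were not removed.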

Additional observations from a re-analysis of the deposited data

Results flagged for a closer look

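The share of border macrophages with high MHC class II was 33.0%, 32.0% and 30.1% in 3 of the VH hashtags and 14.29% in hashtag 3, whose gap to the nearest was 0.848 of the range of the group. Of 12 groups of hashtag values examined this was the 1 with a value so far away, and chance alone marks about 1 in 20 such groups. That share rests on 10 of 70 border macrophages.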

How the results depend on the processing

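The shares were higher with AZD1480 under each of 17 alternatives, by 0.0536 to 0.466 points of all cells and 0.728 to 11.9 points of border macrophages. By exact permutation p was 0.0317 to 0.619 (lowest with ratio-based calls, adjusted 0.0635) and 0.127 to 0.914. Leaving out 1 hashtag gave 0.0945 to 0.299 and 1.23 to 8.96 points, with VH hashtag 3 giving the lowest of each. The library shares moved by more than their counting interval when cells were thinned to 1000 UMIs (0.346%, 0.321%, 0.176% and 0.415% of cells, and 22.7%, 31.9%, 18.5% and 22.5% of border macrophages, in the order PBS, Monomer, VH, AZD1480), with class II at least 2% of UMIs (0.609% of cells and 28.3% of border macrophages in PBS, 26.7% of border macrophages in PFF + AZD1480) and with a border sum of at least 6 (0.232% of cells in PFF + VH).

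Genes called in the members numbered 9 with MULTIseqDemux, 0 with ratio-based hashtag calls (186 at an unadjusted p under 0.05), 10 with at least 1000 UMIs per cell, 2 with class II at least 2%, 41 with no filter on low counts and 11 with DESeq2, against 5. Some of these settings also changed the hashtags in the fit. MULTIseqDemux left 2 VH hashtags, ratio-based calls admitted 5 AZD1480 hashtags, and at least 1000 UMIs left 3 VH hashtags, without hashtag 3. Without 1 hashtag the count was 1 to 10. The test between the classes called 4 genes with at least 1000 UMIs, 2 with a border sum of at least 6, 14 with no filter, 0 to 3 without 1 hashtag, and 0 with MULTIseqDemux, ratio-based calls, class II at least 2% and RLE scaling. Under the first 2 of these settings VH hashtag 3 had 8 members and left the fit, and leaving it out alone gave 3 calls. The replicate block, DESeq2 and the alternatives added later were not run on the test between the classes. No direction of the 8 named genes changed. Ccl12 passed under 17 of 19 alternatives, Cebpb under 10 of 19 and Ets2 under 8 of 19. Lsamp passed under 9 of 13 and Cacna1d under 10 of 19. Ccl12 did not pass with ratio-based calls (edgeR adjusted p = 0.147) or with hashtags of at least 5 cells (edgeR adjusted p = 0.303). Only these alternatives had all 5 AZD1480 hashtags in the fit, and the others had at most 3. Lsamp was not tested under these, with MULTIseqDemux, or without VH hashtag 1, 2 or 4. With the hashtag number as a replicate block 9 genes passed, but of the first 5 Ets2 and Cacna1d did not (edgeR adjusted p = 0.0521 and 0.110). The share differences with this block were 0.258 and 8.96 points (exact p = 0.25 for both, smallest possible 0.125). Alternatives that left out cells with other markers (4 calls) and admitted hashtags with 5 cells (5 calls, of the first 5 only Cebpb and Ets2 among them, Lsamp not being tested) were added after the data were seen. Leaving out called doublets was not run, because the caller marked too few cells to be usable. In counts simulated for the hashtags of the fit, which held 10 to 32 members each, 2-fold changes were recovered in 40% of cases. The simulated spread followed the trend over genes and not each gene's own. The cause of the differences between alternatives was not tested.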
